A study of Coturnix japonica with 20 samples.

Results

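DIO2, SLC5A5 and THRB (NCBI genes 107315160, 107325441 and 107309297) are 3 genes of the thyroid hormone axis, taken by gene identifier from the 16066 genes measured in the liver of Japanese quail (Coturnix japonica) embryos. The labels of the 20 embryos name no strain or mutation, and each egg was injected in the air cell before incubation, on embryonic day 0. Treated eggs were given the synthetic estrogen ethinylestradiol (EE2) at a dose of 3.33 µg per g of egg weight, and solvent eggs were given dimethyl sulfoxide. The left liver lobe was taken on embryonic day 9 from 6 EE2 females, 4 EE2 males, 5 solvent females and 5 solvent males. The labels do not say whether embryos shared parents, and p-values therefore reflect only how these embryos varied. Which liver responses to estrogen differ with sex is the question that the layout of the groups addresses.

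The thyroid gland releases mostly thyroxine, a prohormone that tissues convert into the active hormone T3 or inactivate. The deiodinase DIO2 makes T3 from thyroxine inside the cell, DIO1 can activate or inactivate, and DIO3 inactivates. The sodium iodide symporter SLC5A5 carries iodide into thyroid follicular cells and, in mammals, into stomach and lactating mammary gland. The nuclear receptor THRB binds T3 and regulates genes, and in mammals it is the main T3 receptor of the liver.

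Low counts limit what can be said of DIO2 and SLC5A5. DIO2 had 2 to 38 counts in a library and SLC5A5 had 8 to 260, while THRB had 56 to 309. Libraries held 15298506 to 32119466 estimated counts in all, and the lowest was solvent female replicate 9, with the other 19 at 26776988 or more. Levels are given as CPM, the depth-scaled count, with library sizes scaled by the trimmed mean of M values (TMM), without correction for gene length, so levels of different genes cannot be ranked. Hepatocyte markers were abundant in every library (8 of 9 listed genes present, summed level 71009 to 215711 CPM). Of the thyroid follicular markers, the transcription factor NKX2-1 was at 0 in all libraries, TSHR and FOXE1 were too low to test, and the hormone precursor TG averaged 0.852 to 1.03 CPM and the oxidase DUOX2 0.817 to 1.33 CPM in the 4 groups. The iodide-recycling enzyme IYD was present, with group means of 11.9 to 38.4 CPM and up to 94 CPM in a library, and it made the summed level of the 6 genes found reach 96.2 CPM. In bulk liver, fewer cells of a type and less RNA per cell cannot be told apart.

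**Figure D1:**
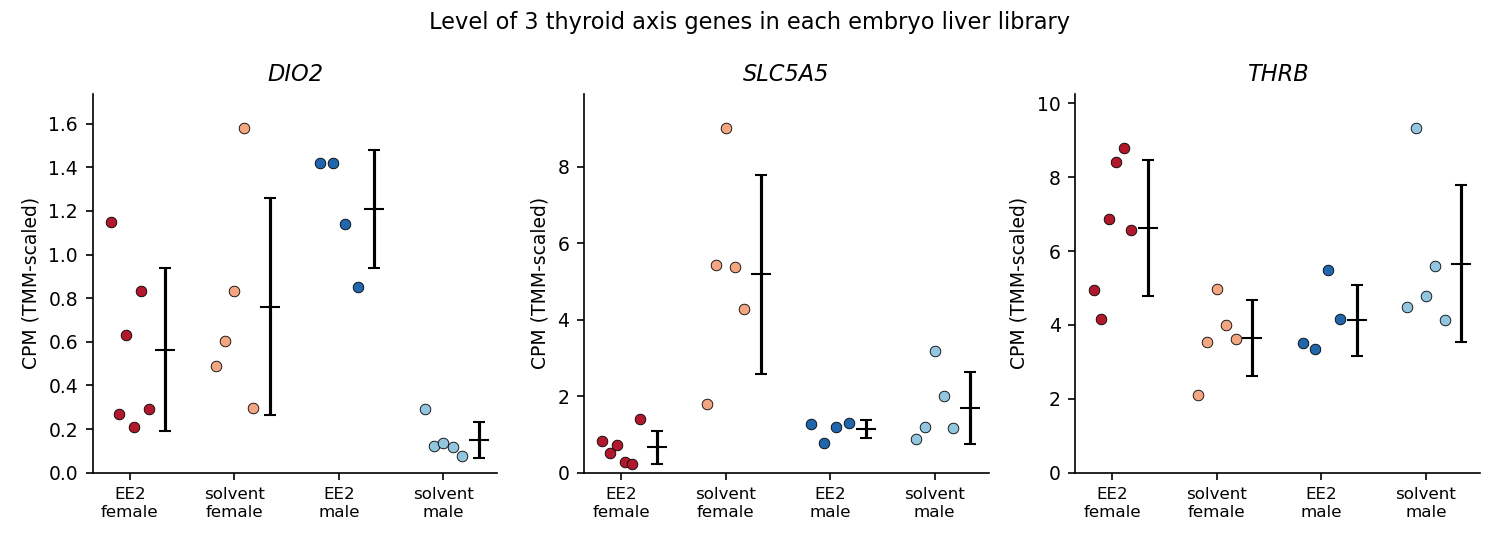
Level of DIO2, SLC5A5 and THRB (vertical axes, CPM on TMM-scaled library sizes) in EE2 females, solvent females, EE2 males and solvent males. Each point is 1 embryo, and the bars give mean ± SD; the 4 EE2 males lie above the 5 solvent males for DIO2, and the 6 EE2 females lie below the 5 solvent females for SLC5A5.

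DIO2, the T3-producing deiodinase, was higher in EE2 males than in solvent males. The 4 EE2 males had 1.42, 1.42, 1.14 and 0.853 CPM (37, 38, 31 and 25 counts), and the 5 solvent males had 0.292, 0.121, 0.137, 0.12 and 0.0772 CPM (8, 4, 4, 4 and 2 counts). Every EE2 male lay above every solvent male. With so few counts the single values are loose: the 2 counts of solvent male replicate 8 allow 0.00935 to 0.279 CPM, and the 25 counts of EE2 male replicate 6 allow 0.552 to 1.26 CPM (95% Poisson intervals, which cover counting error only). No interval of an EE2 male fell below the value of any solvent male. The intervals themselves touched, since the 8 counts of solvent male replicate 1 allow 0.126 to 0.576 CPM. The means were 1.21 ± 0.271 CPM in EE2 males and 0.149 ± 0.0829 CPM in solvent males (SD, n = 4 and 5), a ratio of 8.08. The log2 fold change was 2.98 (SE 0.55, adjusted p = 0.00353, edgeR's quasi-likelihood test over all 13501 genes tested).

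In females DIO2 was not called. The 6 EE2 females ran from 0.21 to 1.15 CPM with a median of 0.463 (7 to 35 counts), and the 5 solvent females had 0.49, 0.603, 0.833, 1.58 and 0.298 CPM (13, 17, 24, 24 and 7 counts). The groups overlapped over most of their range, with the highest value, 1.58 CPM, in the shallowest library. The means were 0.565 ± 0.376 CPM in EE2 females and 0.76 ± 0.496 CPM in solvent females (SD, n = 6 and 5), and the log2 fold change of -0.40 (SE 0.46) had an adjusted p of 0.605 by edgeR.

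By edgeR the male and female effects of EE2 on DIO2 differed. Apart from fits leaving out 1 library, this call was kept in 7 of 10 other settings. The female effect minus the male effect was -3.38 on the log2 scale (SE 0.714, adjusted p = 0.0311, edgeR interaction). The adjusted p passed 0.05, with a highest value of 0.0795, when any 1 of 6 libraries was left out: EE2 female replicate 10, EE2 male replicates 3 and 4, solvent female replicate 6, or solvent male replicates 2 and 7. The difference itself kept its direction, between -3.74 and -2.97, in all 20 such fits.

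In solvent embryos, DIO2 was higher in females than in males. All 5 solvent females (0.298 to 1.58 CPM) lay above all 5 solvent males (0.0772 to 0.292 CPM), although the nearest pair differed by little. The female to male ratio of means was 5.09, and the log2 difference was 2.29 (SE 0.54, adjusted p = 0.0278, edgeR). This call was lost when any 1 of 6 libraries was left out (solvent female replicates 6 and 9, solvent male replicates 2, 4, 7 and 8; adjusted p up to 0.0922), and limma voom gave 0.096. In EE2 embryos the sex difference was not called, with 5 of 6 EE2 females below all 4 EE2 males (log2 difference -1.09, SE 0.47, adjusted p = 0.181).

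From high to low, the group means of DIO2 stood in the order EE2 males, solvent females, EE2 females and solvent males. Neighbours in that order overlapped in their values: EE2 males lay within the range of solvent females, and the lowest EE2 females lay below the highest solvent male. Markers of striated muscle were high in a pair of EE2 males. Their summed level was 20.6, 57, 204 and 13.5 CPM in EE2 males 3 to 6, against 15.2 to 26.5 CPM in solvent males (6 of 8 listed genes present, 2 of 5 tested genes higher in EE2 males). EE2 male replicate 6 held 473 counts of insulin (INS), a pancreas hormone at 0 in the other 19 libraries. Kidney markers summed to 30.1, 65.1, 132 and 40.5 CPM in EE2 males 3 to 6, against 5.52 to 59.7 CPM in solvent males. Of the 2 tested kidney genes 0 were called. Of 8 hepatocyte genes, 1 was higher and 2 lower in EE2 males (summed 133087 to 205499 CPM, against 103818 to 165915 CPM in solvent males). Among them, APOB averaged 38499 ± 1603 CPM in EE2 males and 10624 ± 2096 CPM in solvent males (SD, n = 4 and 5). Over all genes tested, 2.24% were called higher and 1.03% lower in EE2 males. The part of the muscle, pancreas, kidney and hepatocyte markers in the result for DIO2 was not tested. Without EE2 males 4 and 5 together, a choice made after seeing the data, the log2 fold change in males was 2.90 (adjusted p = 0.0451) and the interaction was -3.30 (adjusted p = 0.0525).

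SLC5A5, the iodide transporter, was lower in EE2 females than in solvent females. The 6 EE2 females ran from 0.238 to 1.4 CPM with a median of 0.62 (8 to 43 counts), and the 5 solvent females had 1.81, 5.43, 9.02, 5.39 and 4.29 CPM (48, 153, 260, 82 and 101 counts). Every EE2 female lay below every solvent female. The means were 0.661 ± 0.43 CPM in EE2 females and 5.19 ± 2.6 CPM in solvent females (SD, n = 6 and 5), so the solvent mean was 7.85 times the EE2 mean. The log2 fold change of -2.97 (SE 0.45, adjusted p = 0.000114, edgeR) remained between -3.33 and -2.67 and below an adjusted p of 0.00049 when each library was left out in turn.

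In males the SLC5A5 groups overlapped. The EE2 males had 1.27, 0.783, 1.21 and 1.3 CPM, and the solvent males had 0.877, 1.21, 3.19, 2 and 1.16 CPM. The lowest value was that of EE2 male replicate 4, below every solvent male, the other 3 EE2 males lay within the lower part of the solvent range, and solvent males 4 and 7 were high. The means were 1.14 ± 0.241 CPM in EE2 males and 1.69 ± 0.94 CPM in solvent males (SD, n = 4 and 5; log2 fold change -0.57, SE 0.488, adjusted p = 0.622, edgeR). The female minus male effect was -2.41 (SE 0.652), with an adjusted p of 0.0769 by edgeR, so the difference between the sexes in the response to EE2 was not called; DESeq2 gave -2.42 and an adjusted p of 0.0143.

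Neither sex difference of SLC5A5 was called. Of the 5 solvent females, 4 lay above all solvent males, and the fifth, at 1.81 CPM, fell within the male range. The log2 difference of 1.62 (SE 0.451) had an adjusted p of 0.0903 by edgeR and 0.0163 by DESeq2, and edgeR called it when solvent female replicate 3 (adjusted p = 0.0324) or solvent male replicate 4 (0.0334) was left out. In EE2 embryos, females and males overlapped (log2 difference -0.79, SE 0.476, adjusted p = 0.366). The group means ran from solvent females through solvent males and EE2 males to EE2 females, and each neighbouring pair overlapped.

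THRB, the T3 receptor, was higher in EE2 females than in solvent females. The 6 EE2 females ran from 4.16 to 8.78 CPM with a median of 6.71 (138 to 295 counts), and the 5 solvent females had 2.11, 3.55, 4.96, 4.01 and 3.61 CPM (56, 100, 143, 61 and 85 counts). Of the EE2 females, 4 lay above every solvent female, while replicates 1 and 2 overlapped with them. The means were 6.62 ± 1.83 CPM in EE2 females and 3.65 ± 1.03 CPM in solvent females (SD, n = 6 and 5), a ratio of 1.81 (log2 fold change 0.86, SE 0.251, adjusted p = 0.0194, edgeR). Solvent female replicate 3 was the lowest, and leaving it out gave 0.71 on the log2 scale (adjusted p = 0.0552).

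In males THRB was not called. The EE2 males had 3.5, 3.36, 5.48 and 4.16 CPM (90 to 149 counts), and the solvent males had 4.49, 9.33, 4.77, 5.59 and 4.13 CPM (107 to 309 counts). The groups overlapped, and solvent male replicate 2 stood above the other 4. The log2 fold change was -0.46 (SE 0.275, adjusted p = 0.432, edgeR), between means of 4.12 ± 0.97 CPM in EE2 males and 5.66 ± 2.12 CPM in solvent males (SD, n = 4 and 5). The female minus male effect of 1.32 (SE 0.372) had an adjusted p of 0.0911 by edgeR and 0.0266 by DESeq2. Neither sex difference was called: it was 0.68 (SE 0.267, adjusted p = 0.138) in EE2 embryos and -0.64 (SE 0.26, adjusted p = 0.405) in solvent embryos. The order of group means was EE2 females, solvent males, EE2 males and solvent females, again with overlap between neighbours.

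**Figure D2:**
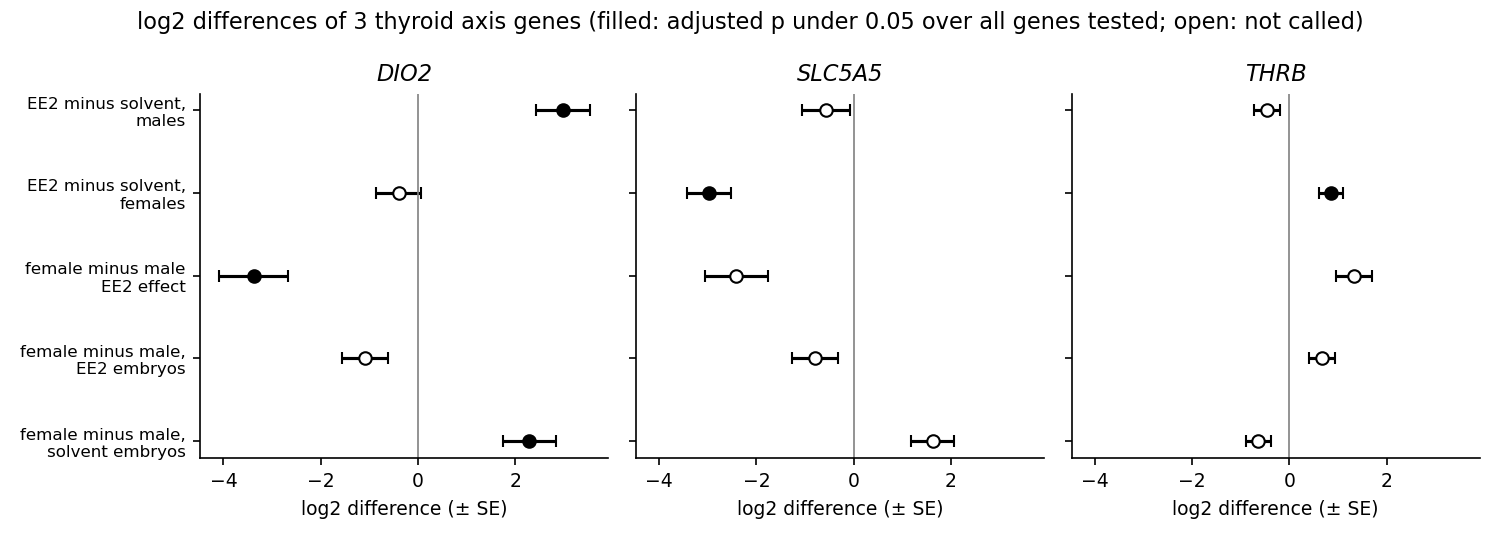
Log2 differences (horizontal axis, ± SE) of DIO2, SLC5A5 and THRB in the 5 comparisons, from 1 edgeR fit over 20 libraries; filled points have an adjusted p under 0.05 over all 13501 genes. DIO2 is called in males at 2.98, SLC5A5 in females at -2.97 and THRB in females at 0.86.

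Set against all genes, 1 of the 3 genes was called in males, where 3.27% of genes were called, and 2 of 3 in females, where 20.3% were called. The interaction was called for 1 of 3, against 1.06% of all genes, the sex difference in solvent embryos for 1 of 3, against 1.72%, and that in EE2 embryos for 0 of 3, against 6.47%. The gene called in males, for the interaction and in solvent embryos was DIO2 each time. These comparisons share the 5 solvent males, with 2 to 8 counts of DIO2 each, so the calls are not independent. For EE2 embryos the count by edgeR at an unadjusted p under 0.05 was 2, and it was 0 by both DESeq2 and limma voom. The 3 genes were named for study with results of these data known, so these counts describe them and no more. Hepatocyte markers moved with the female comparison: their summed level was 71009 to 120691 CPM in EE2 females, against 149194 to 215711 CPM in solvent females, with 6 of 8 genes called lower and 1 higher. Of these, the plasma carrier albumin (ALB) averaged 48087 ± 15456 CPM in EE2 females and 146387 ± 21739 CPM in solvent females (SD, n = 6 and 5). The hepatocyte gene APOB averaged 36194 ± 2342 CPM in EE2 females and 13030 ± 2960 CPM in solvent females. The sum therefore mixes changes in both directions. Some markers of other cell types were called in the same comparison, in which 20.3% of all genes were called. Of 6 macrophage, 6 endothelium and 3 thyroid follicular genes tested, none was called. The stomach, erythroid and pancreas lists had 1 tested gene each, also not called. Of 4 tested cholangiocyte genes 2 were higher and 1 lower, with a summed level of 110 to 230 CPM in EE2 females and 132 to 165 CPM in solvent females. Of 7 mesenchymal genes 2 were higher and 1 lower (summed 1670 to 3355 CPM in EE2 females and 1608 to 2307 CPM in solvent females). Of 2 tested kidney genes 1 was higher (summed 20.4 to 119 CPM in EE2 females and 14.9 to 45.8 CPM in solvent females), and of 5 tested striated muscle genes 1 was lower (summed 3.17 to 17.8 CPM in EE2 females and 12.1 to 45.2 CPM in solvent females). The part of these markers in the results for SLC5A5 and THRB was not tested.

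The deposited estimates are given per coding sequence, and the 3 genes differ in how their counts are split. DIO2 has 2 coding sequences. The first held 94.21% of its counts over all libraries, and the second held at least 1 count in 3 libraries, where it took all of them: 9 in EE2 female replicate 2, 7 in EE2 female replicate 8 and 4 in solvent male replicate 2. In no EE2 male did the second reach 1 count. SLC5A5 has 5, of which 1 held 62.2% of the counts over all libraries, and its share was 57.6% in EE2 females and 64.5% in solvent females, 77.1% in EE2 males and 51.3% in solvent males. Of its other 4, 3 had identical values in every library (6.27% each) and 1 held 18.98%. Single libraries varied more: the most abundant sequence held all SLC5A5 counts in EE2 female replicates 1 and 9 (25 and 8). It held under 1 count in EE2 female replicates 2 and 7. THRB has 8, of which 7 had identical values in every library (14.21% of the counts each), and the last held 0.52%, in EE2 female replicate 8 and solvent female replicates 3, 6 and 10.

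This split touches the calls. With each gene represented by its most abundant coding sequence, DIO2 lost its 3 calls (males 3.25, adjusted p = 0.0962; interaction -3.88, adjusted p = 0.176; sex in solvent embryos 2.56, adjusted p = 0.362), although the differences were as large. THRB in females had the same log2 fold change of 0.86 and an adjusted p of 0.0539, resting on 1 of its 7 identical parts. The call of SLC5A5 in females was kept.

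**Figure D3:**
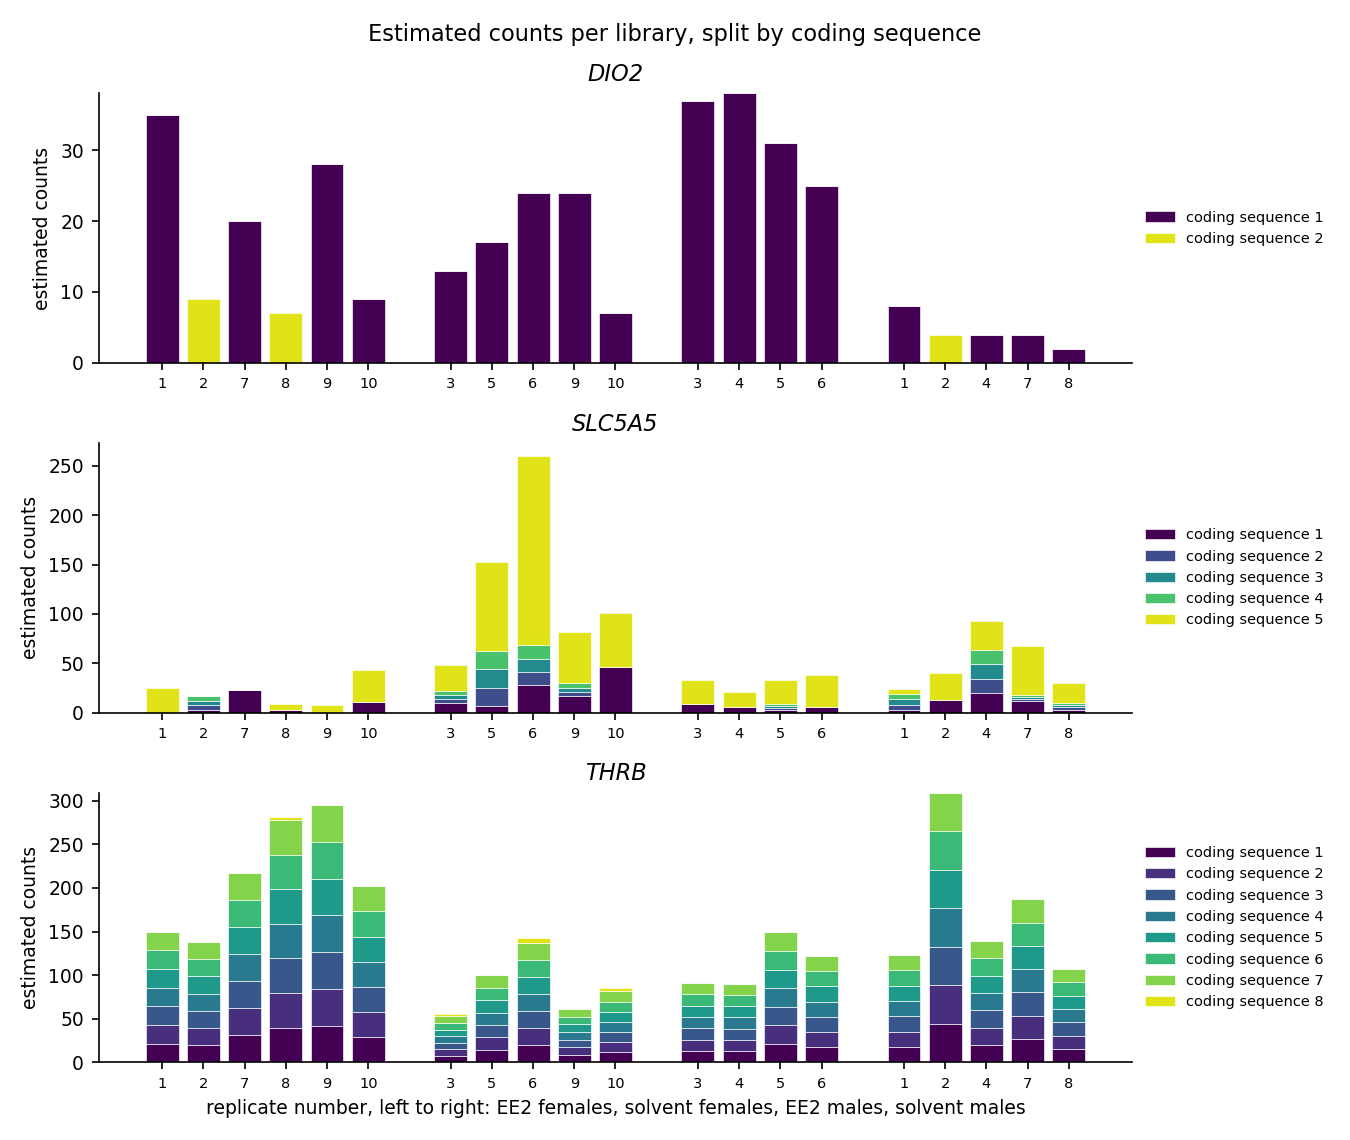
Estimated counts (vertical axes) of DIO2, SLC5A5 and THRB in each library (horizontal axes, replicate numbers, with EE2 females, solvent females, EE2 males and solvent males from left to right), stacked by coding sequence. The second DIO2 sequence fills the whole bar in 3 libraries, coding sequence 5 of SLC5A5 holds most counts in solvent females, and 7 THRB sequences are of equal height.

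Among the relatives that act on the same hormone, DIO1, the deiodinase that can activate or inactivate, was lower in EE2 females. The 6 EE2 females ran from 34.8 to 48.9 CPM (mean 39.9 ± 6.11, SD) and the 5 solvent females from 58.3 to 63.3 CPM (mean 60.3 ± 2.11, SD). No EE2 female reached the solvent range (log2 fold change -0.59, SE 0.126, adjusted p = 0.00225). In males DIO1 averaged 61.9 ± 11.7 CPM with EE2 and 62.6 ± 11.2 CPM with solvent (SD, n = 4 and 5; log2 fold change -0.02, SE 0.14, adjusted p = 0.975). The female minus male effect of -0.58 (SE 0.188) had an adjusted p of 0.151. Between the sexes, DIO1 was lower in EE2 females than in EE2 males (log2 difference -0.63, SE 0.133, adjusted p = 0.00668). Both calls of DIO1 were kept when any 1 library was left out.

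DIO3, the inactivating deiodinase, was called in none of the 5 comparisons. It averaged 267 ± 61.8 CPM in EE2 females and 270 ± 40.1 CPM in solvent females (SD, n = 6 and 5; log2 fold change -0.01, SE 0.179), and 264 ± 27.7 CPM in EE2 males and 272 ± 90.6 CPM in solvent males (SD, n = 4 and 5; log2 fold change -0.05, SE 0.198). Nor was any comparison called for the transporter SLC16A10, which averaged 47.1 ± 6.84 CPM in EE2 females and 50.3 ± 4.97 CPM in solvent females. In males SLC16A10 averaged 51.7 ± 6.42 CPM with EE2 and 42.7 ± 3.39 CPM with solvent (log2 fold change 0.28, SE 0.109, adjusted p = 0.199, edgeR). THRA, the other T3 receptor gene, was lower in EE2 females at 38 ± 2.74 CPM, against 44.8 ± 2.47 CPM in solvent females (log2 fold change -0.24, SE 0.0682, adjusted p = 0.0181), while THRB was higher in the same embryos. Without solvent female replicate 5 the call of THRA was lost. In males THRA stood at 37.8 ± 2.08 CPM with EE2 and 44.1 ± 3.97 CPM with solvent (log2 fold change -0.22, adjusted p = 0.124).

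**Figure D4:**
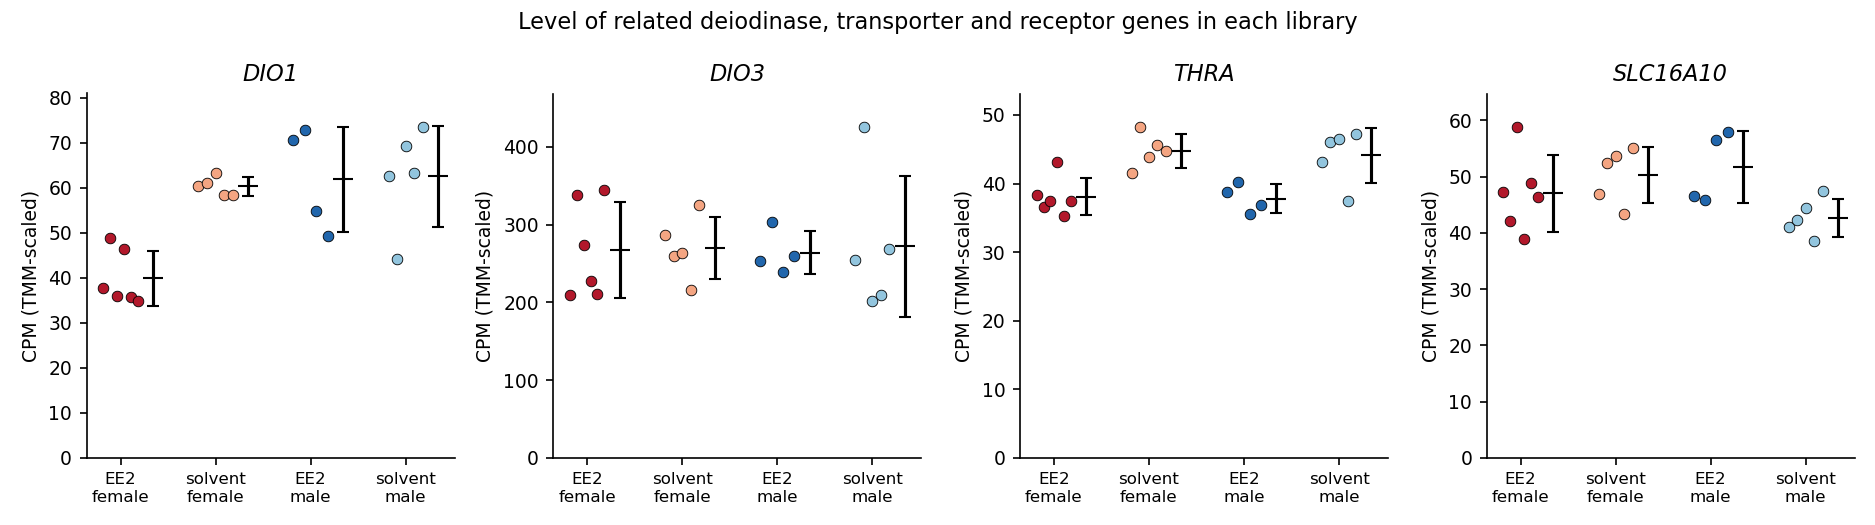
Level of DIO1, DIO3, THRA and SLC16A10 (vertical axes, CPM on TMM-scaled library sizes) in EE2 females, solvent females, EE2 males and solvent males. Each point is 1 embryo, and the bars give mean ± SD; EE2 females lie below all solvent females for DIO1.

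Beyond these, 68 other genes of hormone production, transport, deiodination, response and the SLC5 transporter family were listed, of which 54 were matched and 44 had enough counts to test. EE2 females had 8 of 44 higher and 7 lower (34.1%, against 20.3% of all genes), with a median log2 fold change of 0.06, against 0.01 for all genes. EE2 males had 3 higher and 3 lower (13.6%, against 3.27%), with a median of 0.00, against -0.01. The interaction was called for 2 higher and 1 lower (6.82%, against 1.06%). Sex differences were called for 2 higher and 3 lower genes in EE2 embryos (11.4%, against 6.47%). In solvent embryos none was called by edgeR, against 8 at an unadjusted p under 0.05, 1 by DESeq2 and 0 by limma voom. The lists were chosen with earlier results of these data known, so these shares describe the listed genes and no more.

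Of the listed genes of hormone production and its control by the pituitary, those tested had no edgeR call in any comparison. The share of all genes called was 1.06% to 20.3%. Of the production genes, TG, IYD, DUOX2 and TRHR were tested. The pituitary hormone genes TSHB and CGA had too few counts to test, as had TRH, so they could not be called. At an unadjusted p under 0.05 edgeR had 1 in each of the sex comparisons and 0 in the others, DESeq2 called 1 between the sexes in EE2 embryos, and limma voom called 0. The gene DESeq2 called was TRHR, a hormone receptor that edgeR gave a log2 difference of 4.32 (SE 1.47, adjusted p = 0.0882). Its means were 3.37 ± 5.65 CPM in EE2 females and 0.165 ± 0.221 CPM in EE2 males (SD, n = 6 and 4). The EE2 females ran from 0.13 to 14.5 CPM with a median of 0.616 (4 to 458 counts). Of these 6 females, 3 lay above every EE2 male (0 to 13 counts). Of 3 tested transport genes, ALB was the 1 called, lower in EE2 females (33.3%, against 20.3% of all genes). It was also lower in EE2 females than in EE2 males (log2 difference -1.24, SE 0.221, adjusted p = 0.00157, edgeR). ALB had a log2 fold change of -1.61 in females (SE 0.212, adjusted p = 2.86e-05) and 0.13 in males (SE 0.232, adjusted p = 0.839), and the difference of -1.74 was called (SE 0.313, adjusted p = 0.0232). In the turnover of the DIO2 protein, WSB1, an adaptor that marks DIO2 for degradation, was higher in EE2 females by 0.58 on the log2 scale (SE 0.199, adjusted p = 0.0432), and USP20, an enzyme that reverses that mark, by 0.34 (SE 0.0992, adjusted p = 0.0205). WSB1 lost its call without any 1 of 7 libraries (EE2 female replicates 2, 8 and 9, solvent female replicates 3, 5, 6 and 9), and USP20 without solvent female replicate 3 or 10. SECISBP2, which is needed to build selenoproteins such as the deiodinases, was lower in EE2 females than in EE2 males (log2 difference -0.43, SE 0.104, adjusted p = 0.0183), a call lost without EE2 male replicate 3 or 4.

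Among 12 tested receptors and coregulators, 4 were called in females (33.3%, against 20.3% of all genes) and 2 in males (16.7%, against 3.27%). The coactivator NCOA1 averaged 116 ± 9.33 CPM in EE2 females and 64.6 ± 2 CPM in solvent females (SD, n = 6 and 5; log2 fold change 0.85, SE 0.0685, adjusted p = 1.19e-07). In males it averaged 115 ± 11 CPM with EE2 and 67.4 ± 3.84 CPM with solvent (SD, n = 4 and 5). The corepressor NCOR1, which represses T3 targets when no hormone is bound, was higher in both sexes, by 0.43 in males (SE 0.0856, adjusted p = 0.00657) and 0.33 in females (SE 0.0779, adjusted p = 0.00472). The coactivator NCOA2 was lower in EE2 females (log2 fold change -0.47, SE 0.0935, adjusted p = 0.00127). These calls of NCOA1, NCOR1 and NCOA2 were kept when any 1 library was left out. The mediator subunit MED1 was higher in EE2 females than in EE2 males by 0.34 (SE 0.0944, adjusted p = 0.0347), a call lost without any 1 of 7 libraries (EE2 female replicates 8, 9 and 10 and each of the 4 EE2 males).

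Of 9 tested genes known in other vertebrates to respond to T3, 3 were higher and 2 lower in EE2 females (55.6%, against 20.3% of all genes), and 2 were lower in EE2 males (22.2%, against 3.27%). The transcription factor KLF9, a direct T3 target, was at 1.55 ± 0.229 CPM in EE2 females and 0.78 ± 0.265 CPM in solvent females (SD, n = 6 and 5; log2 fold change 0.98, SE 0.301, adjusted p = 0.0259), a call lost without solvent female replicate 3 or 9. The fatty acid synthase gene FASN was higher in females (log2 fold change 1.24, SE 0.143, adjusted p = 6.64e-06). CPT1A, which admits fatty acids to mitochondria, was lower in females (log2 fold change -0.98, SE 0.162, adjusted p = 0.000276) and in males (-0.96, SE 0.184, adjusted p = 0.00492). G6PC, which releases glucose from the liver, was lower in females (log2 fold change -1.02, adjusted p = 0.000117) and in males (-0.77, adjusted p = 0.0165), the male call being lost without EE2 male replicate 4 or 5. ACACA, an enzyme of fatty acid synthesis, was higher in females (log2 fold change 0.41, SE 0.143, adjusted p = 0.0472) and was called in 7 of 20 fits that left out 1 library.

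SLC5A5 belongs to a family of sodium-coupled transporters. Among its other tested members 33.3% were called in females and in males, against 20.3% and 3.27% of all genes. Of 6 other tested members, SLC5A11, a myo-inositol transporter, was higher with EE2 in both sexes: 8.8 ± 3.22 CPM in EE2 females and 0.747 ± 0.379 CPM in solvent females (SD, n = 6 and 5), and 8.1 ± 4.89 CPM in EE2 males and 0.834 ± 0.261 CPM in solvent males (SD, n = 4 and 5). Its log2 fold changes were 3.54 in females (SE 0.437, adjusted p = 1.53e-05) and 3.26 in males (SE 0.445, adjusted p = 0.000131). SLC5A6, a vitamin transporter, was lower in both, at 82 ± 11 CPM in EE2 females and 142 ± 19.5 CPM in solvent females, and 92.3 ± 25.8 CPM in EE2 males and 193 ± 35.3 CPM in solvent males (log2 fold changes -0.79 and -1.07, adjusted p = 0.00065 and 0.000516).

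**Figure D5:**
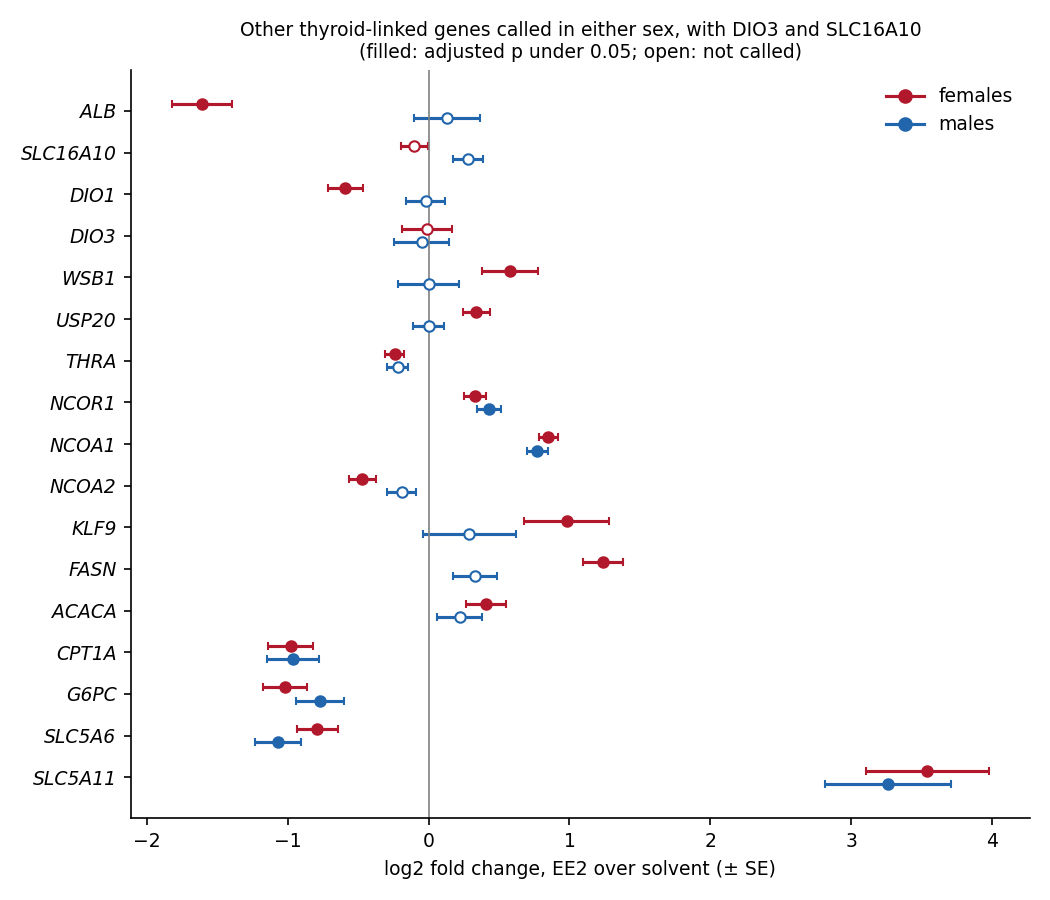
Log2 fold change of EE2 over solvent (horizontal axis, ± SE) in females and males for the other listed genes called in either sex, with DIO3 and SLC16A10 added. Filled points have an adjusted p under 0.05; ALB stands at -1.61 in females and 0.13 in males, and SLC5A11 at 3.54 and 3.26.

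The genes nearest in pattern to each of the 3 were sought by Pearson's r of log2 CPM over the 20 libraries, which share depth and treatment, so the values are descriptions. DIO2 was most like PPP1R3B (r = 0.821), CADPS2 (0.805), PPP2R5A (0.788), ABCA5 (0.770) and DACT2 (0.756). After the 4 group means were removed, r was 0.721 for PPP2R5A and 0.713 for ABCA5, and 0.288 for DACT2. SLC5A5 was most like GRIN3B (0.855), EXTL1 (0.838), CREBBP (0.837), KLB (0.822) and KCTD1 (0.813), with 0.295 to 0.590 left within groups. Among the genes most like THRB were DYNC1H1 (0.855), UAP1 (0.851), EIF4G3 (0.802) and ZBTB21 (0.790), with 0.718 to 0.787 left within groups. The most opposite genes were APOA4 (-0.745), ZPR1 (-0.739) and RCC1 (-0.728) for DIO2, JUND (-0.848), IMPDH2 (-0.835) and C25H1orf43 (-0.834) for SLC5A5, and CPPED1 (-0.833), SELENOH (-0.803) and B3GALT1 (-0.792) for THRB. Among themselves the 3 were not alike: r was 0.070 for DIO2 with SLC5A5, -0.268 for DIO2 with THRB and -0.435 for SLC5A5 with THRB, and within groups it was 0.086, 0.059 and 0.135.

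The genes next to each of the 3 on the Coturnix japonica 2.1 assembly, up to 2 on each side, were looked at after the values of the 3 were seen. Over all genes tested, 20.3% were called in females, and 1.06% to 6.47% in the other comparisons. Whether neighbours change together was not tested. Next to DIO2, ADCK1, NRXN3 and CEP128 were tested and none was called in any comparison. Next to SLC5A5, KCNN1, a potassium channel gene, was lower in EE2 females (log2 fold change -0.83, SE 0.126, adjusted p = 0.000117), and all 6 EE2 females lay below all 5 solvent females. In males KCNN1 had -0.07 (SE 0.139, adjusted p = 0.869), and the interaction of -0.76 had an adjusted p of 0.0551. The adjacent CCDC124 was not called, and JAK3 and B3GNT3 had too few counts to test. Next to THRB, RPL15, NR1D2 and RARB were not called in females, and LOC107309267, a locus without a gene name, was lower (log2 fold change -0.19, SE 0.0564, adjusted p = 0.0211).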

How the data were processed

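Estimated counts of 40934 coding sequences were deposited by the authors in 2 tables, with identical values and other identifiers. Per the submitters' processing notes, kallisto produced them. No version, transcript set or genome build is given in the sources used here, so no coordinates are printed. kallisto splits reads between similar sequences, and 52.64% of the values were whole numbers. Values of a gene identifier were summed and rounded, and all 16066 identifiers matched the Coturnix japonica 2.1 gene table, used for names and neighbours. Sex and treatment came from the labels.

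Genes were kept by edgeR's filterByExpr (minimum count 10, minimum total 15), which left 13501 genes and 99.9837% of the counts, and all 3 genes passed. A single fit of 4 group means over 20 libraries (edgeR 4.0.16, limma 3.58.1, R 4.3.3; TMM scaling, robust two-sided quasi-likelihood test) gave 5 comparisons, with Benjamini-Hochberg adjustment over all genes and a call at an adjusted p under 0.05. Alternatives included DESeq2 1.42.0, limma voom, other scalings and filters, and leaving out each library. The script was tested on simulated data with 1 common spread for all genes, so that test does not cover genes that vary more. DIO2, SLC5A5 and, by less, THRB varied more than the common spread of these data (0.48, 0.482 and 0.285, against 0.245, edgeR's biological coefficient of variation). No 2 libraries were identical.

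The 3 genes and the gene lists were chosen with earlier results of these data known. Named were the 3 genes, listed genes called in a comparison, the direct relatives DIO1, DIO3, THRA and SLC16A10 whether called or not (TTR and THRSP were not analysed here), and the 5 most and 3 least correlated named genes. Some genes that this rule would name are not reported here, and the lists are counted without them. For 14 listed genes no match was found, and they were not analysed here. The assignment of reads to genes with near-identical copies is uncertain.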

Additional observations from a re-analysis of the deposited data

Results flagged for a closer look

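In 3 of 28 sets of values checked (each a gene in a group of 4 to 6 libraries), 1 library stood apart from the others of its group, and chance flags about 1 in 20. DIO2 was at 0.292 CPM in solvent male replicate 1 (8 counts), with the next solvent male at 0.137. SLC5A5 was at 0.783 CPM in EE2 male replicate 4 (21 counts), with the next EE2 male at 1.21. In solvent male replicate 2, THRB was at 9.33 CPM (309 counts) with the next solvent male at 5.59. The female and male effects of EE2 differed by edgeR's interaction test for DIO2 (-3.38 on the log2 scale, female minus male), ALB (-1.74), FASN (0.91, adjusted p = 0.0442) and PCK1 (5.07, SE 1.19, adjusted p = 0.0456). PCK1, the enzyme that commits carbon to glucose synthesis, was at 2.06 ± 2.09 CPM in EE2 females and 0.501 ± 0.3 CPM in solvent females, and at 0.487 ± 0.456 CPM in EE2 males and 4.08 ± 3.82 CPM in solvent males (SD). The interaction of FASN was called in 5 of 20 fits that left out 1 library, and that of PCK1 in 2 of 20.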

How the results depend on the processing

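With each gene represented by its most abundant coding sequence, calls were lost for DIO2 in males (3.25, log2 here and below), for its interaction (-3.88) and sex difference in solvent embryos (2.56), and for THRB in females (0.86). SLC5A5 in males, not called, was 0.04, against -0.57 with summed sequences, and 1 listed gene had an interaction. The cause was not tested. DESeq2 called the interactions of SLC5A5 (-2.42) and THRB (1.31), the solvent sex difference of SLC5A5 (1.62) and 1 listed gene. With limma voom the solvent sex difference of DIO2 was 2.08, and 1 listed gene had an interaction. Without EE2 males 4 and 5 together, chosen after seeing the data, the interaction of DIO2 was -3.30, and 3 listed genes were called in males, 1 for the interaction and 2 between sexes in EE2 embryos. Leaving out each library gave -0.72 to 0.01 for DIO2 in females (not called), 0.71 to 1.0 for THRB in females, -3.74 to -2.97 for the interaction of DIO2, 1.88 to 2.65 for its solvent sex difference and 1.32 to 1.98 for that of SLC5A5. Listed genes numbered 1 to 3 for the interaction, 2 to 5 in EE2 embryos and 0 to 1 in solvent embryos. Residual correlation showed little pairing by replicate number: r was -0.018 to 0.136 in 10 pairs and over 0.1 in 2 of them. Of 20 libraries, 3 were closest to their own number. The labels do not say whether a number marks a shared day or batch. A block by replicate number costs power here, since only number 4 holds both male groups and only 9 and 10 both female groups. Calls lost under it therefore do not show a shared batch. A replicate block gave SLC5A5 -2.40 and THRB 0.98 in females, DIO2 -3.81 for the interaction and 2.38 in solvent embryos, none called, and 3.23 for DIO2 in males, still called. Listed calls under the block were 1 in males, 7 in females, and 0 for the interaction and EE2 embryos, and over all genes 52, 877, 0 and 99, with 47 in solvent embryos. Over all genes DESeq2 called 768 in males, 454 for the interaction and 1311 in EE2 embryos. A fit of the 2 male groups called 195, leaving out EE2 males 4 and 5 called 110, and the most abundant coding sequence gave 62 for the interaction. Leaving out 1 library gave 234 to 647 in males, 21 to 191 for the interaction and 446 to 956 in EE2 embryos. Of 29 calls on listed genes, 18 were kept whichever library was left out, 21 were lost under the block, and none reversed. DIO2 did not pass the filter with solvent libraries alone, so its sex difference has no value there. Counts of 2 to 38 limit DIO2.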

Other observations

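TNNT2, a striated muscle troponin, was at 1.77, 14.8, 58.5 and 0.58 CPM in EE2 males 3 to 6. On the first principal component of log2 CPM (29.4% of the variance), EE2 male replicate 3 lay at -1.45, the other EE2 libraries between 22.45 and 44.12, and the solvent libraries between -41.62 and -26.40. DIO2 in that embryo was at 1.42 CPM, level with EE2 male replicate 4.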
